A study of Homo sapiens with 8 samples.

Results

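Cytoplasmic dynein is the motor that carries cargo towards the minus ends of microtubules, and dynactin is the multi-subunit complex that it needs for processive movement. The 10 genes described here encode subunits of both complexes and the dynein regulator LIS1, and they were taken by name from the 60664 genes in the deposited count tables. They are the heavy chain DYNC1H1, the intermediate chain DYNC1I2, the light intermediate chains DYNC1LI1 and DYNC1LI2, the light chains DYNLL1 and DYNLRB1, the dynactin subunits DCTN1, DCTN2 and DCTN4, and PAFAH1B1, which encodes LIS1. The values that follow compare ribosomes pulled down with a chaperone against all ribosomes of the same cells.

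Selective ribosome profiling reads the mRNA fragments inside ribosomes (ribosome-protected fragments, RPFs), once from the whole ribosome pellet (input) and once from the ribosomes that come down with a tagged chaperone (pulldown). U-2 OS cells, which derive from a human osteosarcoma, carried a HaloTag either on CCT4, a subunit of the chaperonin TRiC, or on PFD4 (gene PFDN4), a subunit of the cochaperone prefoldin (PFD). Each tagged line was a single clone made by CRISPR–Cas9 integration, and no untagged or mock pulldown was analysed here. All cells received cycloheximide at 100 µg per ml for 1 min and were crosslinked with 2 mM DSP for 30 min, and each of the 4 groups (TRiC input, TRiC pulldown, PFD input, PFD pulldown) had 2 libraries, described in the methods as biological replicates. The p-values given below set a difference against the spread between these libraries, which is estimated with the help of the other genes tested.

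The dynein heavy chain holds the motor domain and dimerizes, and the intermediate chains bind it and carry the light chains. The light intermediate chains contact the adaptors that select cargo, and dynactin, built on a short filament of actin-related proteins, joins dynein to those adaptors. Dynein intermediate chains and LIS1 end in WD repeat β-propellers, a fold found among the proteins that TRiC helps to fold, and the filament of dynactin is related to actin, a classic client of TRiC and PFD.

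The libraries held between 9523128 and 32637658 counts, and the 10 genes together took between 0.172% and 0.235% of them. Of the mesenchymal markers, FN1, VIM and SPARC had group means between 1503 and 13359 CPM (counts relative to the library total, scaled for composition with TMM), while SP7 was at most 0.25 and ALPL was 2.97 CPM in the TRiC inputs against 42.4 CPM in the PFD inputs. Of the markers of other cell types, CD3E and HBB of blood had 0 counts in every library, and CDH1 and KRT20 of epithelium were at most 0.56 CPM in any group mean. Others had counts, with group means up to 14.5 CPM for EPCAM and 19.4 CPM for KRT14 (epithelial), 6.80 CPM for CDH5 (endothelial) and 16.4 CPM for SNAP25 (neuronal). The tagged genes were not set apart in their own pulldowns, with log2 fold changes of −0.13 for CCT4 in the TRiC pulldown and 0.17 for PFDN4 in the PFD pulldown.

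Reads could be counted for these genes only where their sequence is unique, because the authors kept unique alignments. Each coding sequence of the 10 genes was therefore cut into overlapping windows of 30 bases, about the size of an RPF, and searched for exact copies elsewhere in hg38. For DYNC1H1, DYNC1LI2, DCTN1, DCTN2 and DCTN4 no window had a copy. For DYNC1I2, 1198 of 1888 windows (63.5%) had a copy in the processed pseudogene DYNC1I2P1 on chromosome 10. For DYNLL1, 88 of 241 windows (36.5%) were found at 6 other places, most of them in DYNLL1P1, DYNLL1P2 and DYNLL1P7. PAFAH1B1 had copies of 19.2% of its windows, in PAFAH1B1P1 and PAFAH1B1P2 on chromosome 2, and DYNC1LI1 and DYNLRB1 had copies of 6.03% and 2.29%. The counts of DYNC1I2, DYNLL1 and PAFAH1B1 can therefore leave out part of their RPFs, or share them with pseudogenes where a read carries a mismatch.

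The sequences of DYNLL1, its close relative DYNLL2 and the start of DYNC1I2 show where these copies lie. They are the coding strand from the start codon, 5′ to 3′, of the canonical transcripts in GENCODE release 44 on hg38, and capitals mark the bases inside a window that has an exact copy elsewhere. DYNLL1 (chr12:120469850-120498493, plus strand) and DYNLL2 (chr17:58083419-58095542, plus strand) both have 3 coding exons and are shown whole, at 270 bases each. DYNC1I2 (chr2:171687409-171750158, plus strand) has 18 coding exons and 1917 coding bases, of which the first 300 are shown.
DYNLL1: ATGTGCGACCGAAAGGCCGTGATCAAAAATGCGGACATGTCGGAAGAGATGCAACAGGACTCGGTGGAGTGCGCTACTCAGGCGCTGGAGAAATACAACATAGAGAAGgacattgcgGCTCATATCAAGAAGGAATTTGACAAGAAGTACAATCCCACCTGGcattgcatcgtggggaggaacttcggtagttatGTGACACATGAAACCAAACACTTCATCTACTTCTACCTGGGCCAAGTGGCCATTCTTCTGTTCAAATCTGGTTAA
DYNLL2: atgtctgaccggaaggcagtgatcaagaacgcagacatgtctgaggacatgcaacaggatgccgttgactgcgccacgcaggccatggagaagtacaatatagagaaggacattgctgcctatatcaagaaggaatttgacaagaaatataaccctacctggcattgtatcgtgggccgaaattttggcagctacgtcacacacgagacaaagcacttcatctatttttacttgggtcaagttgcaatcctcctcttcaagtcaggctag
DYNC1I2: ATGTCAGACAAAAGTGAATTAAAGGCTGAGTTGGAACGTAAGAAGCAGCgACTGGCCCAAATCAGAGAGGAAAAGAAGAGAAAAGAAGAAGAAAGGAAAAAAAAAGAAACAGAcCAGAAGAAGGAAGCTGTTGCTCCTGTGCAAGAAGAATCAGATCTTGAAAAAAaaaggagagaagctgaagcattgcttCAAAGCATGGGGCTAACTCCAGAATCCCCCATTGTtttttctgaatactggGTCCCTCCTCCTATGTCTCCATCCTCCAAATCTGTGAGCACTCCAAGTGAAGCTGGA
In DYNLL1, 228 of the bases (84.4%) are in capitals, and in DYNC1I2 92.7% of the whole coding sequence is. DYNLL2 has none, although 79.6% of its bases are the same as in DYNLL1. The paralogous pairs of dynein subunits shared no window of 30 bases (DYNLL1 with DYNLL2, DYNC1LI1 with DYNC1LI2, DYNC1I1 with DYNC1I2, DYNLRB1 with DYNLRB2), so that exact reads of one were not taken from the other.

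A second limit comes from genes that overlap. DYNLRB1 lies on the same strand as ENSG00000289720 over 99.0% of its coding bases, and DCTN1 shares 15.0% of its coding bases with ENSG00000264324 in the same way. Genes on the opposite strand cover 5.72% of the coding bases of DCTN2 (KIF5A) and 2.75% of those of DYNC1H1 (ENSG00000258959). Whether these opposite bases matter depends on the strand column of the counts, which is not given in the sources used here. STAR leaves out reads that fall in more than 1 gene. DYNLRB1 had between 78 and 98 counts in the TRiC libraries and between 3 and 121 in the PFD libraries. This low count sets how far its values can be read.

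On all ribosomes, the genes differed widely in RPF density, given here as CPM per kilobase of coding sequence. In the TRiC inputs DYNLL1 had the highest density at 378 ± 46.0 (SD, n = 2), followed by DCTN2 at 151 ± 1.81, DCTN4 at 99.9 ± 4.59 and DYNC1H1 at 85.4 ± 0.0984. PAFAH1B1 (81.5), DYNC1LI2 (75.3), DCTN1 (66.2), DYNC1LI1 (39.2), DYNC1I2 (37.3) and DYNLRB1 (11.2) came next in that order of density. The libraries of neighbours in this order did not overlap, which says nothing of reads that could not be counted. In the PFD inputs DYNLL1 (430 ± 40.6, SD, n = 2) and DCTN2 (152 ± 6.30) again had the highest densities, while DYNC1H1 was in eighth place at 51.3 ± 2.98. The densities of DYNLL1, DYNC1I2, PAFAH1B1, DYNC1LI1, DYNLRB1 and DCTN1 are counted over the whole coding length, although part of it is not unique or overlaps another gene. DCTN2 and DYNC1H1 overlap genes on the opposite strand over a small part of theirs. For DYNC1I2 only 690 of 1888 windows have no copy elsewhere, and DYNLRB1 overlaps another gene over 99.0% of its coding bases. The low places of DYNC1I2 and DYNLRB1 are therefore uncertain. Over the coding bases that it does not share, DCTN1 would have 77.8 CPM per kilobase in the TRiC inputs, above DYNC1LI2, and 84.4 in the PFD inputs, above DYNC1LI1, so the order in its neighbourhood is uncertain.

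**Figure D1:**
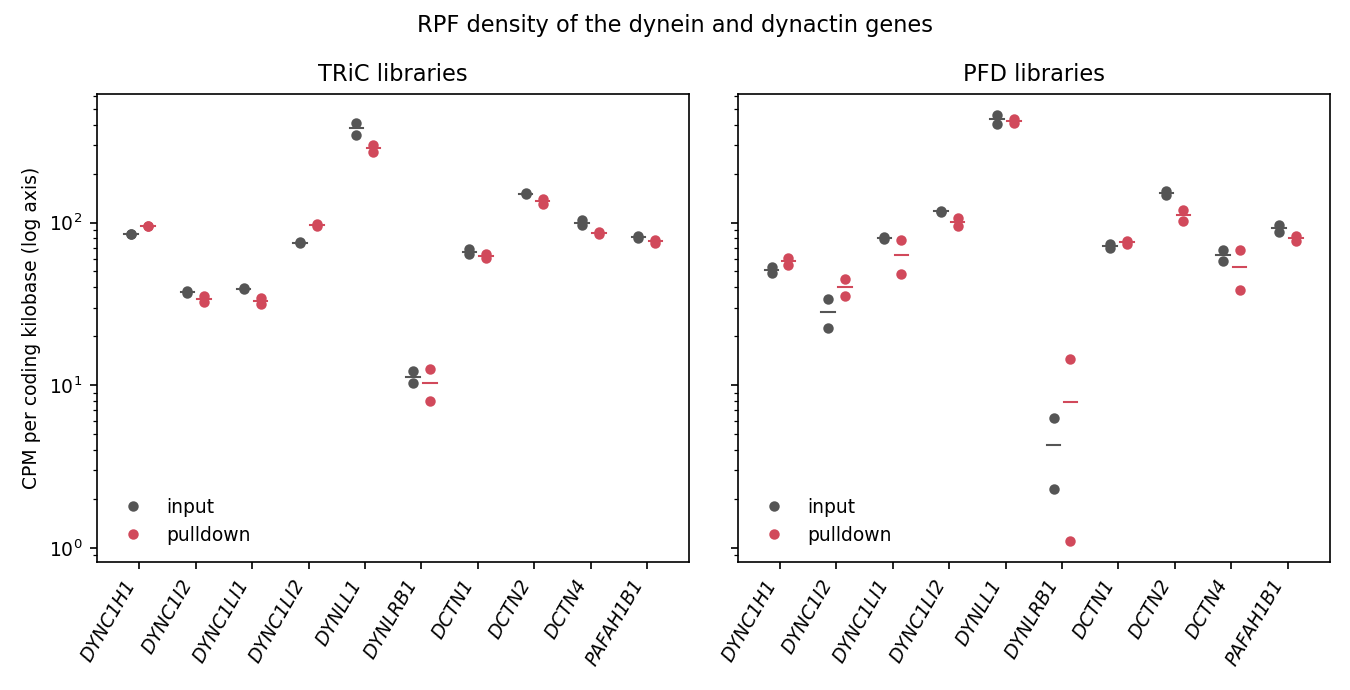
RPF density of the 10 genes (vertical log axis, CPM per coding kilobase) in the TRiC libraries (left) and the PFD libraries (right). Points are libraries and short lines are group means of n = 2, with inputs in grey and pulldowns in red. DYNLL1 is highest in each group, with a mean of 378 in the TRiC inputs, and DYNLRB1 is lowest.

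In the TRiC pulldown, which asks whether ribosomes making these subunits were recovered with CCT4 more or less than average, DYNC1LI2 rose and DYNLL1 fell, and 8 of the 10 genes did not pass the test. The call was an adjusted p under 0.05 in edgeR's quasi-likelihood test over all genes tested. By that rule 8.64% of the 17934 genes tested were called higher and 10.6% lower, so 1 higher and 1 lower among 10 genes is near the background. The median log2 fold change of the 10 genes was −0.14, against −0.0032 for all genes tested. DYNC1H1 and DYNC1LI2 had values above 0 and the others below, although DCTN1 turned to 0.02 with cyclic loess scaling. At an unadjusted p under 0.05 there were 5 of the 10 genes, where 32.5% of all genes tested were. In a fit of all 8 libraries, which shares the wider spread of the PFD libraries, neither DYNC1LI2 nor DYNLL1 was called (edgeR adjusted p = 0.252 and 0.367).

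DYNC1H1, the motor subunit, supplied more than any other gene to the counts of this set, with 53.9% and 53.6% of them in the TRiC inputs and 58.0% and 58.4% in the TRiC pulldowns. Its level was 1189 and 1191 CPM in the inputs against 1336 and 1323 CPM in the pulldowns. Both pulldown libraries were above both inputs. The log2 fold change was 0.16 ± 0.060 (SE, 95% interval 0.03 to 0.29), and the edgeR adjusted p of 0.0722 missed the threshold. DESeq2 called the gene higher (log2 fold change 0.17, adjusted p = 0.0242), as it did 7.87% of the genes it gave an adjusted p. Cyclic loess with limma also called it higher (0.33, adjusted p = 0.000722), with 1630 of all 17934 genes tested. In the fit of all 8 libraries it was not called. Its coding sequence is long, and by edgeR 41.6% of all genes with over 6000 coding bases were called higher.

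The light intermediate chains, which link the motor to cargo adaptors, had values on opposite sides of 0. DYNC1LI2 was at 111.5 and 111.2 CPM in the TRiC inputs against 140.9 and 144.4 CPM in the pulldowns. The pulldown libraries lay above the inputs by many times the gap between replicates. Its log2 fold change was 0.36 ± 0.079 (SE, 95% interval 0.19 to 0.52), a rise of 28.1% (edgeR adjusted p = 0.00462). DYNC1LI1 was at 62.2 and 60.9 CPM in the inputs against 49.97 and 54.3 CPM in the pulldowns, without overlap. Its log2 fold change of −0.24 ± 0.096 (SE, edgeR adjusted p = 0.0877) missed the threshold. The ratio of DYNC1LI2 to DYNC1LI1 counts was 1.79 and 1.82 in the TRiC inputs and 2.82 and 2.66 in the TRiC pulldowns. Their coding sequences are 70.1% identical and have similar lengths, 1479 bases for DYNC1LI2 (chr16:66720893-66751609, minus strand) and 1572 bases for DYNC1LI1 (chr3:32525974-32570858, minus strand). The call for DYNC1LI2 was lost without TRiC input replicate 1 (edgeR adjusted p = 0.0572) or without TRiC input replicate 2 (0.0743), at log2 fold changes of 0.36 and 0.34.

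DYNLL1 encodes the LC8 light chain, a dimer that also binds many proteins outside dynein. It was at 110.9 and 93.4 CPM in the TRiC inputs against 81.0 and 72.9 CPM in the pulldowns. The groups did not overlap, although the inputs differed more than the pulldowns did. Its log2 fold change was −0.41 ± 0.098 (SE, 95% interval −0.61 to −0.20), a fall by 24.6% (edgeR adjusted p = 0.00768). Without TRiC input replicate 1 the value was −0.27 and was not called (edgeR adjusted p = 0.223). DYNLL2, the paralogue whose coding windows are all unique, had a log2 fold change of −0.29 ± 0.083 (SE, edgeR adjusted p = 0.0212) and also fell. DYNLL1 over DYNLL2 counts gave ratios of 1.03 and 0.844 in the TRiC inputs and 0.895 and 0.826 in the TRiC pulldowns, which overlap.

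DYNC1I2, the intermediate chain with a WD repeat propeller, was at 70.2 and 72.9 CPM in the TRiC inputs against 62.1 and 67.6 CPM in the pulldowns. PAFAH1B1 encodes LIS1, a WD repeat protein that binds the dynein motor domain, and it was at 99.5 and 101.5 CPM in the inputs against 96.6 and 91.9 CPM in the pulldowns. Neither gene passed the test. Their log2 fold changes were −0.14 (95% interval −0.34 to 0.05) and −0.09 (−0.27 to 0.08), with edgeR adjusted p = 0.302 and 0.483. These values are totals over a whole gene, whereas the authors called binding by position along the coding sequence. Binding over only part of a coding sequence, such as its end, could be missed here. PAFAH1B1 lies at chr17:2593210-2685615 on the plus strand. DYNLRB1, the roadblock light chain (chr20:34516395-34540958, plus strand), had an interval from −0.84 to 0.58 around −0.13.

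The dynactin subunits in the set were DCTN1 (p150), which binds microtubules and the dynein intermediate chain, DCTN2 (dynamitin, p50), part of the shoulder of the complex, and DCTN4 (p62), at the pointed end of the filament. DCTN4 was at 133.7 and 142.7 CPM in the TRiC inputs against 120.3 and 116.8 CPM in the pulldowns, without overlap. Its log2 fold change was −0.22 ± 0.081 (SE, edgeR adjusted p = 0.0647). DCTN2 had −0.16 ± 0.077 (SE, edgeR adjusted p = 0.171) and DCTN1 −0.09 ± 0.074 (0.432). None of the 3 was called. DCTN1 lies at chr2:74361154-74392087, DCTN2 at chr12:57529633-57547224 and DCTN4 at chr5:150708440-150759095, all on the minus strand, with 3837, 1206 and 1383 coding bases.

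The remaining subunits of both complexes held genes that fell in the TRiC pulldown and none that rose. Of 14 such genes 13 were tested, since DYNLRB2 had too few counts, and 5 fell while 0 rose, where 10.6% of all genes fell and 8.64% rose. Those that fell were DYNLL2, the dynactin subunit DCTN3 (log2 fold change −0.36), both actin-related filament genes ACTR1A (−0.32) and ACTR1B (−0.30), and the capping protein subunit CAPZB (−0.32), with edgeR adjusted p between 0.00637 and 0.0212. The median of the 13 was −0.17, and the highest value was 0.20 for DYNLT3, a light chain. The same 5 genes are the ones under an unadjusted p of 0.05. Of them, 2 have up to 600 coding bases and 3 up to 1500, and in these length classes 30.5% and 14.7% of all genes fell. ACTR1A shares 6 windows with ACTR1B, and CAPZA1 and CAPZA2, the other capping subunits, had 32.7% and 19.7% of their windows elsewhere in the genome.

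**Figure D2:**
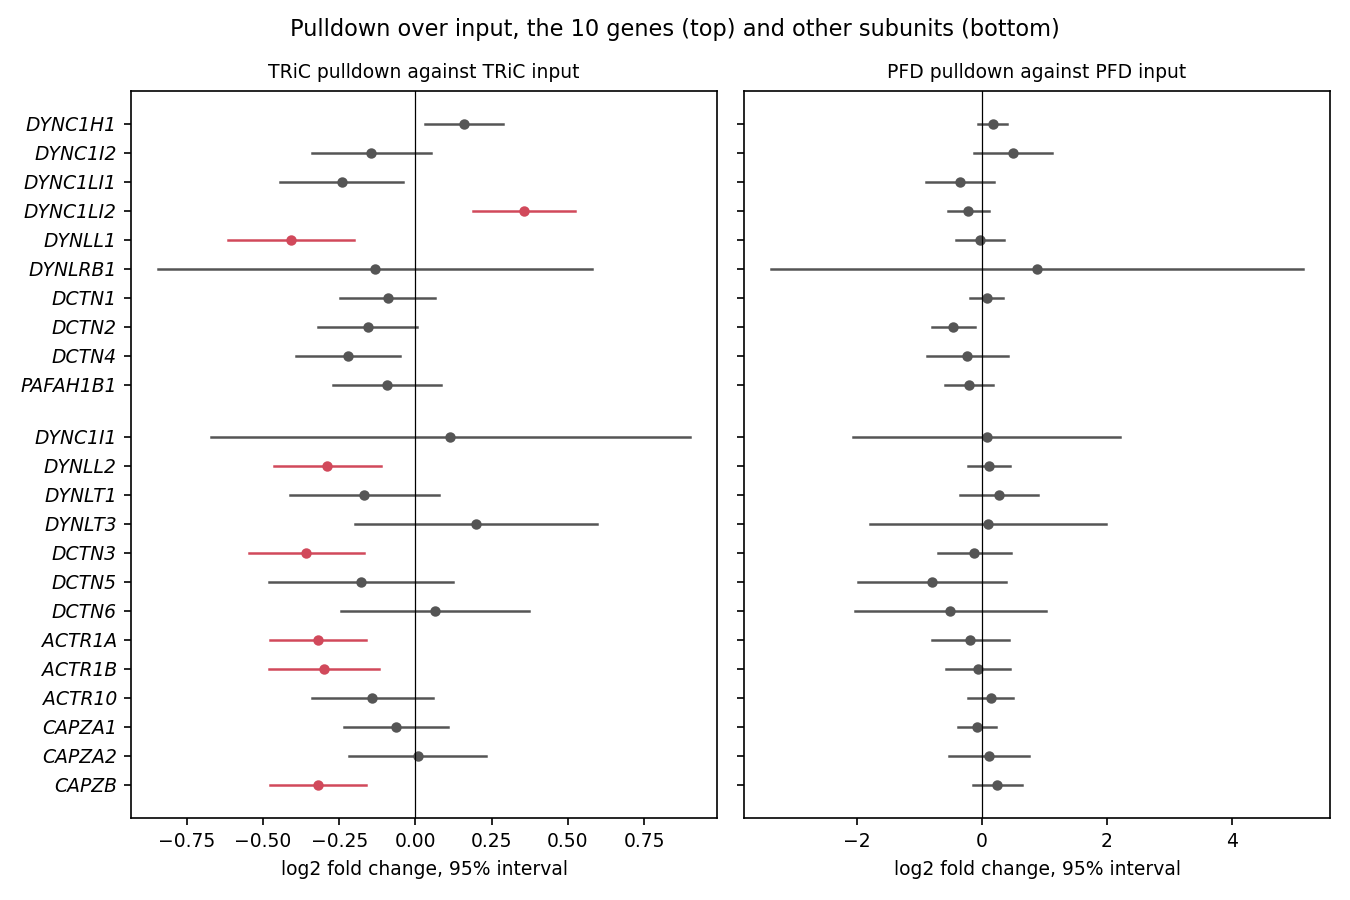
Log2 fold change of pulldown over input with its 95% interval (horizontal axis) for the 10 genes and 13 other subunits, in the TRiC libraries (left) and the PFD libraries (right, wider axis). Red marks an edgeR adjusted p under 0.05. DYNC1LI2 at 0.36 and DYNLL1 at −0.41 are the called genes of the set on the left, and no gene is called on the right.

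The value in the TRiC pulldown moved with coding length across all genes. The median log2 fold change was −0.25 for the 1782 genes with up to 600 coding bases, −0.11 for those above 600 and up to 1500 bases, 0.03 for the next class up to 3000, 0.15 for that up to 6000 and 0.28 for the 447 genes over 6000. DYNC1H1, with 13941 coding bases (chr14:101964573-102056443, plus strand), was at percentile 31.4 of its class, below the class median. DYNLL1 was at percentile 29.0 of the shortest class, where 30.5% of genes were called lower. DYNC1LI2 stood at percentile 84.6 of the class up to 1500 bases, in which 3.84% of genes were called higher. DYNC1LI1 at percentile 14.8 and DCTN1 at 16.5 were the lowest of the 10 within their classes. The part that length plays in the value of a single gene was not tested.

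Genes that rose in the TRiC pulldown were found among the adaptors and regulators, which activate dynein or join it to cargo. Of 18 such genes 17 were tested, and 7 rose while 0 fell, where 8.64% of all genes rose and 10.6% fell. The median log2 fold change was 0.30. MAPK8IP3 (JIP3, 0.92), NINL (ninein-like protein, 0.82), NDEL1 (a LIS1 partner, 0.56), CCDC88A (girdin, 0.49), TRAK2 (a mitochondrial adaptor, 0.37), BICD1 (0.34) and NIN (ninein, 0.27) were called. BICD2 had the lowest value at −0.17. The 7 called genes have coding lengths from 1038 bases for NDEL1 to 6402 for NIN. MAPK8IP3, NINL and CCDC88A are in the class up to 6000 bases, where 19.3% of all genes rose, and NIN is in the class above it, where 41.6% did. BICD1 and TRAK2 are in the class up to 3000 bases and NDEL1 in that up to 1500, where 7.82% and 3.84% of all genes rose. On the same background, cytoplasmic dynein 2, the motor of cilia, had 2 genes higher and 1 lower of 5. Its heavy chain DYNC2H1 had 0.48 and its intermediate chain DYNC2I1 0.84, while DYNC2I2 had −0.33 and the lowest value, −0.49, was that of DYNLT2B, which was not called. Among kinesins, the other family of microtubule motors, 40 of 42 genes were tested, 6 rose and 2 fell, and the median was 0.08. The highest was KIFC2 at 0.89, followed among the called genes by KIF27 (0.84), KIF16B (0.51), KIFC3 (0.44), KIF13A (0.37) and KIF14 (0.30). KIF20A fell by 0.30 on the log2 scale, and KIF4B, an intronless copy of KIF4A, fell by 1.03 at 45 to 112 counts in each TRiC library. How far its reads can be told from those of KIF4A was not examined, and its value is uncertain. Of the 6 kinesins that rose, 4 are in the class up to 6000 coding bases. In that class 15 other kinesins were not called and 1 fell, and 19.3% of all its genes rose.

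In the PFD pulldown none of the 10 genes was called by edgeR, where 0.0496% of the 14111 genes tested were called higher and 0.191% lower. At an unadjusted p under 0.05 there was 1 gene, DCTN2, a share near the 6.93% of all genes tested. DESeq2 called the same gene lower (log2 fold change −0.45, adjusted p = 0.0283), as it did 2.22% of the genes it gave an adjusted p. The median log2 fold change of the 10 genes was −0.12, with 4 values above 0 and 6 below. The common dispersion, edgeR's squared coefficient of variation between replicates, was 0.331 in the PFD libraries and 0.0153 in the TRiC libraries.

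DCTN2 was at 178.1 and 188.9 CPM in the PFD inputs against 123.1 and 144.2 CPM in the PFD pulldowns. Both pulldowns were below both inputs. The log2 fold change was −0.46 ± 0.150 (SE, 95% interval −0.80 to −0.11; edgeR adjusted p = 0.702). The ratio of DCTN2 to DCTN1 counts was 0.629 and 0.706 in the PFD inputs against 0.432 and 0.488 in the pulldowns. In the TRiC libraries it was 0.734 and 0.698 in the inputs against 0.691 and 0.675 in the pulldowns. DCTN1 itself was at 283.3 and 267.3 CPM in the PFD inputs against 285.0 and 295.6 CPM in the pulldowns, with a log2 fold change of 0.08 (95% interval −0.19 to 0.34).

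DYNC1H1 was at 744.5 and 685.6 CPM in the PFD inputs against 761.9 and 849.6 CPM in the PFD pulldowns. Its log2 fold change of 0.17 (95% interval −0.06 to 0.40) was close in size to that in the TRiC pulldown, with a wider interval. DYNC1I2 had the widest spread between inputs, relative to its mean, of the well-counted genes, at 65.2 and 43.1 CPM against 85.8 and 67.6 CPM in the pulldowns. Its log2 fold change was 0.50 (95% interval −0.13 to 1.13). DYNLL1 was at 108.5 and 124.0 CPM in the inputs against 116.4 and 110.7 CPM in the pulldowns, which lay within the range of the inputs.

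The values of DYNC1LI1 and DCTN4 depended on which PFD pulldown was read. DYNC1LI1 was at 128.8 and 124.9 CPM in the PFD inputs against 76.0 and 122.2 CPM in pulldown replicates 1 and 2. DCTN4 was at 93.2 and 80.3 CPM in the inputs against 53.6 and 93.8 CPM in the pulldowns. In both genes pulldown replicate 1, the library with the smallest total, was low while replicate 2 was near the inputs. Without PFD pulldown replicate 2 the log2 fold changes were −0.74 for DYNC1LI1, −0.58 for DCTN2 and −0.70 for DCTN4. Without PFD pulldown replicate 1 the value of DCTN4 was 0.11. DYNC1LI2 was more even, at 173.5 and 172.2 CPM in the inputs against 157.4 and 140.0 CPM in the pulldowns (log2 fold change −0.22, 95% interval −0.55 to 0.11). PAFAH1B1 was at 118.6 and 108.5 CPM in the inputs against 101.4 and 95.4 CPM in the pulldowns (−0.21, −0.60 to 0.18). DYNLRB1 had 13 and 19 input counts against 3 and 121 pulldown counts, and its interval ran from −3.38 to 5.14.

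None of the 13 other subunits tested was called in the PFD pulldown by edgeR, and none had an unadjusted p under 0.05. Their values ran from −0.80 for DCTN5 to 0.27 for DYNLT1. Neither were the adaptors (17 tested, from −1.54 for RILP to 0.48 for BICDL1), the dynein 2 genes (5 tested, from −0.31 for DYNC2LI1 to 1.06 for DYNLT2B) or the kinesins (38 tested, from −0.65 for KIF14 to 4.06 for KIF26B). At an unadjusted p under 0.05 there were 0, 0 and 1 genes in these lists. Some of these extremes rest on few counts, with 7 and 0 in the PFD inputs against 30 and 97 in the pulldowns for KIF26B. DYNLT2B had 0 and 8 against 0 and 44 counts, and RILP had 66 and 6 against 0 and 38.

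The difference between the enrichments was tested as an interaction over all 8 libraries, where 0.0212% of 18855 genes were called higher in TRiC and 0.0159% lower. None of the 10 genes was called by edgeR. DYNC1LI2 had the largest difference relative to its error, 0.59 ± 0.13 on the log2 scale (SE, 95% interval 0.29 to 0.89; edgeR adjusted p = 0.164). No other gene of the set had an unadjusted p under 0.05 in this test, a threshold passed by 14.8% of all genes tested. DESeq2 called DYNC1LI2 higher (0.58, adjusted p = 0.00451), as it did 3.02% of the genes it gave an adjusted p. In edgeR its difference was 0.64 without PFD pulldown replicate 1 and 0.56 without PFD pulldown replicate 2. For DYNC1H1 the difference was −0.0017 with an interval from −0.31 to 0.31, and for DYNLL1 it was −0.36 (−0.78 to 0.05). DYNC1I2 had −0.62 (−1.29 to 0.05) and DCTN2 0.31 (−0.07 to 0.69).

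Between the inputs, DYNC1LI1 and DYNC1LI2 were higher and DYNC1H1 was lower in the PFD line than in the TRiC line, and 7 of the 10 genes were not called. By edgeR 9.93% of the 18855 genes tested were called higher and 10.5% lower. The median of all genes was −0.18 with TMM and 0.07 with cyclic loess, so the values are best read against that shift. The tag, the clone, the line and the library batch cannot be told apart in this comparison, nor, in bulk libraries, can fewer cells with a gene and fewer fragments per cell.

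DYNC1H1 had 1178 ± 1.57 CPM (SD, n = 2) in the TRiC inputs and 725 ± 53.9 CPM in the PFD inputs on the scale of all 8 libraries. Its log2 difference was −0.70 ± 0.095 (SE, edgeR adjusted p = 0.00153), a fall by 38.5%. DYNC1LI1 had 60.9 ± 0.870 CPM in the TRiC inputs and 128.5 ± 4.81 CPM in the PFD inputs, a log2 difference of 1.08 ± 0.22 (SE, edgeR adjusted p = 0.0110). DYNC1LI2 had 110.2 ± 0.194 CPM and 175.1 ± 3.78 CPM, a log2 difference of 0.67 ± 0.092 (SE, edgeR adjusted p = 0.00165). In all 3 genes the inputs of the lines did not overlap, which is likely for genes that were called and adds no support. The call for DYNC1LI1 was lost without any 1 of the 4 inputs, at edgeR adjusted p between 0.0696 and 0.0861 and log2 differences between 1.02 and 1.09.

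DCTN4 had a log2 difference of −0.64 (95% interval −1.20 to −0.07, edgeR adjusted p = 0.103), and DESeq2 called it lower (−0.66, adjusted p = 0.0268). The others lay between −1.37 for DYNLRB1 and 0.22 for DYNLL1. The heavy chain made up 39.3% and 38.2% of the counts of the 10 genes in the PFD inputs, against 53.9% and 53.6% in the TRiC inputs. Of the 13 other subunits tested, 3 were called higher and 1 lower, beside 9.93% and 10.5% of all genes. The capping genes CAPZA1 (log2 difference 0.89), CAPZA2 (0.79) and CAPZB (0.74) were higher in the PFD inputs and ACTR1B (−0.54) was lower. The lowest value, also −0.54, was that of ACTR1A, at 199 ± 0.859 CPM in the TRiC inputs and 136 ± 33.7 CPM in the PFD inputs (SD, n = 2). The highest was 1.10 for DYNC1I1, which had 40 to 146 counts in the PFD inputs.

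Over the 8 libraries, the genes whose levels were most like those of DYNC1H1 were COL12A1, a collagen, SRSF5, a splicing factor, and IGF1R, the receptor of insulin-like growth factor 1. Likeness was the root mean square difference of log2 CPM after each gene was centred on its mean, over 11175 genes whose counts averaged 100 or more. It was 0.0441 for COL12A1, 0.0554 for SRSF5 and 0.0567 for IGF1R, against a median of 0.546 over all genes. On the scale of all 8 libraries DYNC1H1 had 1178 CPM in the TRiC inputs and 1316 CPM in the TRiC pulldowns. In the PFD inputs and pulldowns it had 725 and 810 CPM. Likeness to DYNC1H1 is therefore mostly a like difference between the lines, where tag, clone and library batch cannot be told apart. Within the set the pair most alike was DCTN1 and PAFAH1B1 at 0.115, and the pair least alike was DYNC1H1 and DYNC1LI1 at 0.890, DYNLRB1 left out for its low counts.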

How the data were processed

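RPFs were sequenced from 4 groups of 2 libraries each, and all 8 were mapped to a group from the sample labels. The authors trimmed and demultiplexed the reads, extracted molecular identifiers with UMI-tools, removed non-coding RNA with Bowtie2 2.4.2, aligned the rest to hg38 with STAR 2.7.10a and kept unique alignments, and the deposited values are whole-number counts per gene without normalization. The annotation release and the strand column are not given in the sources used here. Of 60664 identifiers, 60463 matched GENCODE release 44 and 201 did not.

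For each line its pulldown was set against its input by edgeR 4.0.16 under R 4.3.3 (TMM, filterByExpr, glmQLFit, glmQLFTest, Benjamini-Hochberg adjusted p under 0.05 over all genes tested). The interaction and the inputs were fitted over all 8 libraries. CPM are scaled by TMM within a line unless stated, and coding lengths include the stop codon. Windows of 30 coding bases were searched on both strands of 25 chromosomes. The alternatives tried were DESeq2 1.42.0, a block for the replicate number, scaling by library totals, cyclic loess with limma 3.58.1, no filter, at least 10 counts in every library, all 8 libraries in 1 fit and leaving out each library. The scripts were tested on simulated data.

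The genes, lists and tests were chosen with earlier results of these data known. Named genes are the 10 members, the called, highest and lowest genes of the other lists, and the 3 most like DYNC1H1. The other subunits named between inputs, the pairs of genes in count ratios and the lowest or highest pairs within the set were chosen after their values were seen. Totals between 9523128 and 32637658 counts keep the counting error of well-counted genes small, and with n = 2 the spread between replicates limits the precision. Where groups are said not to overlap within a single comparison, the share of all genes that do so was not counted.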

Additional observations from a re-analysis of the deposited data

Results flagged for a closer look

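In 3 of the 10 genes both pulldown libraries of one line lay above both of its inputs, and both pulldown libraries of the other line lay below theirs, on the scaling within each line. That pattern was seen in 12.3% of the 13749 genes tested in both lines. On the scaling of all 8 libraries it was seen in 12.1% of them and in 2 of the 10 genes, DYNC1LI2 and DYNC1I2, since the PFD pulldowns and inputs of DCTN1 then overlap. DYNC1LI2 had a log2 fold change of 0.36 with TRiC and −0.22 with PFD, and the interaction had an edgeR adjusted p of 0.164. DYNC1I2 was at −0.14 with TRiC and 0.50 with PFD, at an edgeR adjusted p of 0.364 for the interaction, and 63.5% of its coding windows have a copy elsewhere. DCTN1 was at −0.091 with TRiC and 0.077 with PFD, at an edgeR adjusted p of 0.627 for the interaction, and both intervals included 0.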

How the results depend on the processing

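In the TRiC pulldown, 1 gene was called higher and 1 lower. These counts were 2 and 3 with a replicate block (DYNC1H1 added to the higher, DYNC1LI1 and DCTN4 to the lower), 2 and 1 with DESeq2, with cyclic loess and with at least 10 counts in every library, 0 and 0 with all 8 libraries in 1 fit, and from 0 to 2 and from 0 to 3 when a library was left out. In the PFD pulldown no gene was called, DESeq2 called 1 lower, and leaving out a library gave 0 to 3 lower. For the interaction DESeq2 called 1 higher, and leaving out a library gave 0 to 3 higher, 3 of them without PFD pulldown replicate 2 (DYNC1LI1, DYNC1LI2 and DCTN2) and 1 without PFD pulldown replicate 1. Between inputs 2 were higher and 1 lower, 2 were lower with DESeq2, with no filter and with at least 10 counts in every library (DCTN4 added), and leaving out a library gave 1 to 2 higher and 1 to 2 lower. The sign turned in values near 0 or with wide intervals. In the TRiC pulldown DCTN1 was 0.024 with cyclic loess, and DYNLRB1 ranged from −0.47 to 0.15 with a library left out. In the PFD pulldown the ranges with a library left out were −0.14 to 0.052 for DYNLL1, −0.70 to 0.11 for DCTN4 and −1.92 to 1.77 for DYNLRB1. In the interaction DYNC1H1 was 0.0014 with a replicate block, 0.068 with library totals, 0.19 with cyclic loess and 0.016 with at least 10 counts, and DCTN4 was −0.020 with no filter. With a library left out the interaction ranged from −0.11 to 0.14 for DYNC1H1, −0.21 to 0.57 for DYNC1LI1, −0.35 to 0.55 for DCTN4 and −1.96 to 1.83 for DYNLRB1. Between inputs DCTN2 was −0.060 with cyclic loess, −0.00074 with at least 10 counts, and −0.0016 to 0.052 with a library left out. The cause of these changes was not tested. DYNC1LI2 kept its sign in every TRiC alternative (0.34 to 0.45), as did DYNLL1 (−0.54 to −0.27). The median of the 10 genes ranged from −0.15 to −0.07 in the TRiC pulldown and from −0.21 to 0.02 in the PFD pulldown. Over all genes, calls ranged from 16 to 2037 higher and 15 to 2704 lower in the TRiC pulldown, the lowest with all 8 libraries in 1 fit, and from 7 to 1081 higher and 27 to 1353 lower in the PFD pulldown, the highest without PFD pulldown replicate 2. In the interaction they ranged from 0 to 2489 higher and 0 to 1442 lower, and between inputs from 793 to 3154 and 699 to 4552. Whether a replicate number pairs an input with a pulldown is not stated, and the main fits held no block. Deviations of same-numbered libraries correlated at 0.0798 over 17934 genes in the TRiC line and −0.0043 over 14111 genes in the PFD line. Noise within each library also lowers such a correlation, so it cannot show that the libraries were unpaired. The block gave 2037 higher and 2652 lower calls over all genes in the TRiC pulldown, against 1550 and 1894 without it. In the PFD pulldown it gave 44 higher and 90 lower, against 7 and 27. A lone library in a group was assumed to vary like the other groups.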
